A study of Homo sapiens with 12 samples.

Results

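The 8 BH3-only genes BCL2L11, BID, BBC3, PMAIP1, BAD, BIK, BMF and HRK were taken by symbol from a table of 38516 genes, and each had 1 row. They were measured by RNA sequencing in KYSE150 and KYSE510, both established human lines derived from squamous cell carcinoma of the esophagus (ESCC) and grown in RPMI-1640 with 10% FBS. The 4 groups, each of 3 libraries, were control cells of either line and cells of either line with HCP5, a long non-coding RNA gene of the major histocompatibility region, silenced. The labels give no other treatment, harvest time, reagent or clone, and library titles begin with sh in controls and silenced cells alike. The series title asks about HCP5, c-Myc and apoptosis.

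BH3-only proteins start the mitochondrial pathway of apoptosis. Their BH3 helix docks into a groove of the anti-apoptotic BCL2 proteins, and some members also bind the pore formers BAX and BAK1 directly. Once the pore formers permeabilise the outer mitochondrial membrane, cytochrome c leaves the mitochondria and caspases are activated. Most of these proteins are controlled by transcription in response to stress, while BID is cut by caspase-8 and BAD is held inactive by phosphorylation and 14-3-3 proteins, so that RNA is only part of their regulation.

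The BH3 core is what defines the family, so the stretch of 14 codons that encodes it is shown for each member, read from GENCODE release 29 transcripts on GRCh38. Capitals mark the codon of the conserved leucine and, 4 codons on, the codon pair of a small residue and the conserved aspartate.
BCL2L11: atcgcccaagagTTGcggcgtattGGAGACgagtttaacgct
BID: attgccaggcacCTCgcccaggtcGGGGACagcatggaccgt
BBC3: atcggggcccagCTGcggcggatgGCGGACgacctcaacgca
PMAIP1: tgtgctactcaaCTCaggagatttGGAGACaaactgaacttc
BAD: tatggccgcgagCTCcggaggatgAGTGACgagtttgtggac
BIK: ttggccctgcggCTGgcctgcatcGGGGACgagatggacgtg
BMF: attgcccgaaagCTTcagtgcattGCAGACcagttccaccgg
HRK: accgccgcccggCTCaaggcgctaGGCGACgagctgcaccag

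All 8 stretches lay within a single coding exon, at chr2:111150091-111150132 on the plus strand for BCL2L11, chr22:17739415-17739456 on the minus strand for BID, chr19:47226579-47226620 on the minus strand for BBC3 and chr18:59902661-59902702 on the plus strand for PMAIP1. The stretch of BAD was at chr11:64271622-64271663 on the minus strand, that of BIK at chr22:43127704-43127745 on the plus strand, that of BMF at chr15:40104195-40104236 on the minus strand and that of HRK at chr12:116881170-116881211 on the minus strand. The aspartate codon was GAC in 8 of 8, and the small residue was glycine in 5, alanine in 2 and serine in 1, which is BAD. Over the 28 pairs, 16 to 27 of the 42 bases were identical. BCL2L11 shared 27 with BBC3 and 27 with BMF, while BID and BAD shared 16. Annotated isoforms can lack the stretch. It was present in 7 of 13 distinct coding sequences of BCL2L11, 2 of 5 of BID, 2 of 4 of BBC3, 1 of 2 of PMAIP1, 1 of 3 of BAD and 1 of 3 of BMF. The deposited values add up all exons of a gene, so isoforms with and without a BH3 core were not separated.

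Values are RPKM, reads of a gene corrected for its exon length and for library size, and they allow levels of different genes to be compared. Libraries held 20035025 to 28202422 reads assigned to genes. All 3 silenced KYSE150 libraries were deeper than the controls of that line (26281327 to 28202422 against 20035025 to 22700935), so depth and silencing cannot be told apart there by group. HCP5 was at 0.779, 0.745 and 0.786 RPKM in KYSE150 controls and 0.315, 0.418 and 0.579 in silenced cells. In KYSE510 it was at 0.914, 1.85 and 1.40 RPKM in controls and 0.505, 0.951 and 0.948 in silenced cells. The silenced means were 56.8% and 57.6% of control, and HCP5 was lower in 6 of 6 same-numbered pairs, although the KYSE510 groups overlapped. In limma HCP5 did not pass in either line (adjusted p = 0.267 and 0.646). Squamous epithelial markers summed to 1115 to 3167 RPKM per library and all 11 were tested. Among them SOX2 was near the floor in KYSE150, with a mean of 0.160 RPKM in controls and 0.0916 in silenced cells. Its mean was 8.80 RPKM in KYSE510 controls and 8.06 in silenced KYSE510 cells. Of 11 markers of other cell types, CD68 reached 29.7 to 47.1 RPKM, the other 10 stayed at or below 0.800, and the leukocyte gene PTPRC at or below 0.00566. In bulk RNA, fewer cells of a kind and less RNA per cell cannot be told apart. KYSE150 control replicate 3 stood apart among the controls of its line. Its summed BH3-only level was 34.1 RPKM, against 25.8 and 22.1 in replicates 1 and 2 and 30.8, 37.5 and 36.6 in the silenced libraries.

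In control cells the transcripts fell into a high group of BAD, BID and PMAIP1, a low group of HRK and BBC3, and BMF below them. The order of mean RPKM in KYSE150 controls was BAD 13.7, BID 5.78, PMAIP1 3.88, BCL2L11 1.50, BIK 0.845, BBC3 0.829, HRK 0.756 and BMF 0.0598. Libraries of BIK, BBC3 and HRK overlapped in KYSE150, so these neighbours had no order beyond their spread. In KYSE510 controls the order was BID 10.5, BAD 10.1, PMAIP1 6.73, BIK 5.82, BCL2L11 2.43, HRK 0.738, BBC3 0.674 and BMF 0.291. There BID overlapped BAD, PMAIP1 overlapped BIK, HRK overlapped BBC3, and the lowest BBC3 library was below the highest BMF library. BMF rested on 5 to 15 reads per library in KYSE150 and 27 to 78 in KYSE510, and BIK on 8 to 36 reads in KYSE150.

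**Figure D1:**
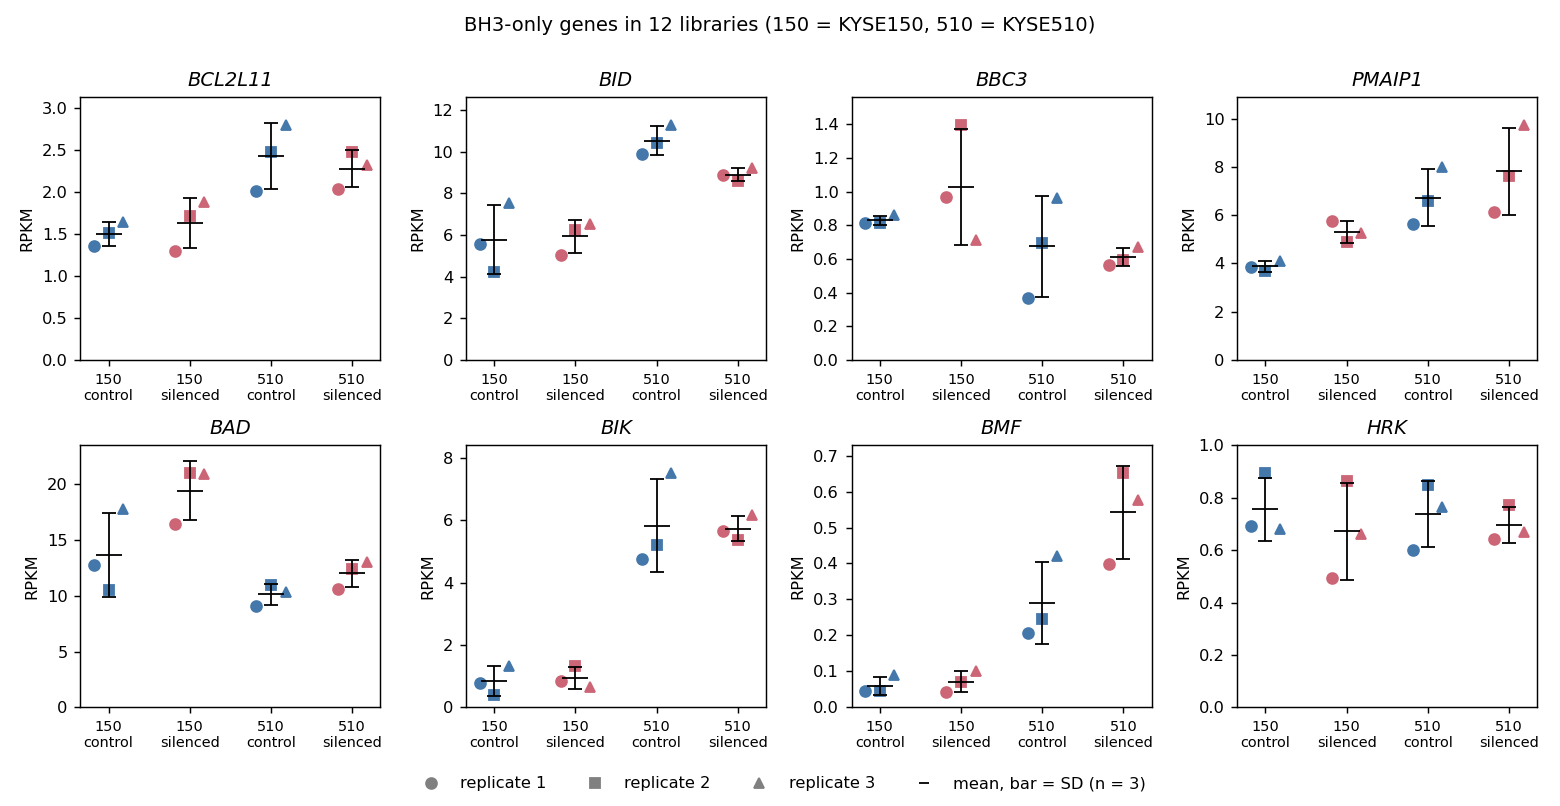
RPKM (vertical axis, linear, a scale of its own per gene) of the 8 BH3-only genes in the 12 libraries, by line and treatment. Symbols are replicate numbers and bars are mean and SD of 3 libraries. BIK sits at 0.409 to 1.34 in KYSE150 and 4.75 to 7.51 in KYSE510, and PMAIP1 in silenced KYSE150 lies above all controls of that line.

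Silencing of HCP5 moved no BH3-only gene past the threshold in either line in a model of 4 group means. PMAIP1 and BAD were the only members higher in all 6 same-numbered pairs, which also held for 6.70% of genes tested. When the replicate number was added as a block, PMAIP1 rose in KYSE150, by 0.40 on the log2 scale. The other members had intervals spanning both directions in both lines, apart from BAD in KYSE150 and BMF in KYSE510. Differences below are silenced minus control on the log2(RPKM + 0.5) scale, which understates changes of low genes. The test was limma over the 17823 genes that reached 0.5 RPKM in 3 or more libraries, with p-values adjusted by Benjamini-Hochberg. Of the 8 members, 7 met that minimum and BMF did not.

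In KYSE150, 0 of 7 members passed an adjusted p of 0.05 in limma, against 0.499% of all genes tested. At an unadjusted p of 0.05, 2 of 7 members passed, PMAIP1 and BAD, beside 18.1% of all genes. After centring the libraries 1 did, BAD, beside 2980 of the 17823 genes. In KYSE510, 0 of 7 passed, against 0.0393% of all genes, and 0 did so unadjusted, beside 6.35% of all genes. With voom on the recovered reads the counts were also 0 and 0. Averaged over both lines, 0 of 7 passed, against 0.539% of all genes, and 2 did so unadjusted, again PMAIP1 and BAD, beside 11.5% of all genes. The difference of the silencing effect between the lines passed for 0 of 7 members, with adjusted p from 0.560 to 0.894, and for 0% of all genes. At an unadjusted p of 0.05 it did so for 0 members and 12.2% of all genes. The median member difference was 0.14 in KYSE150 and -0.05 in KYSE510, beside 0.08 and -0.02 for all genes tested. Centring each library on its median moved the median of all genes in KYSE150 from 0.08 to -0.05 and that of the members to 0.01.

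The labels do not say whether the numbers pair the libraries. Deviations of same-numbered control and silenced libraries correlated at 0.147 to 0.415. Those of other numbers correlated at -0.385 to 0.184, so the ranges overlapped. The overlap was in KYSE150, where control 2 correlated at 0.184 with silenced 1 and at 0.147 with silenced 2. In KYSE510 same-numbered values were 0.266 to 0.410 and the others at most -0.0257. Deviations from a group mean sum to 0, so a positive same-numbered value pushes the other values down. The blocked values are given too, but their pairing was read from the same data that they test. With the block, 1 of 7 members passed in KYSE150, and it was higher, beside 6.70% of all genes called and 5.04% called higher, and 0 of 7 in KYSE510, beside 0.112%. Over both lines 1 of 7 passed, beside 2.74%. That member was PMAIP1 both times.

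**Figure D2:**
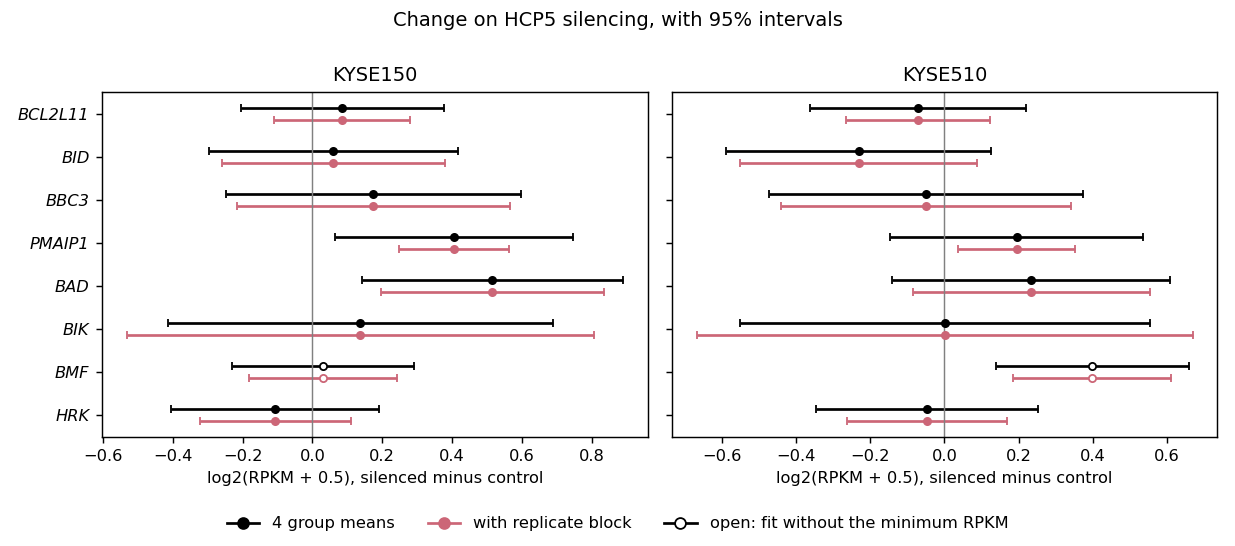
Silenced minus control on log2(RPKM + 0.5) with 95% intervals (horizontal axis) for each BH3-only gene in KYSE150 and KYSE510, from 4 group means (black) and with the replicate block (red); BMF, drawn open, is from the fit without the RPKM minimum. For PMAIP1 in KYSE150 both intervals lie above 0, from 0.06 to 0.74 and from 0.25 to 0.56, both without centring of the libraries.

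BCL2L11 (BIM) binds all anti-apoptotic BCL2 proteins and can activate BAX directly. The gene lies at chr2:111119378-111168447 on the plus strand. It was at 1.36, 1.51 and 1.64 RPKM in KYSE150 controls and 1.30, 1.72 and 1.88 in silenced cells. KYSE510 had 2.02, 2.48 and 2.80 RPKM in controls and 2.04, 2.48 and 2.32 in silenced cells. Silenced and control libraries overlapped in both lines. The log2 difference was 0.09 (SE 0.13, n = 3 per group, limma adjusted p = 0.770) in KYSE150, where it was -0.04 after centring the libraries, and -0.07 (adjusted p = 0.975) in KYSE510.

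BID links death receptors to mitochondria, since its caspase-8 fragment moves there. The gene lies at chr22:17734138-17774770 on the minus strand. It was at 5.58, 4.22 and 7.54 RPKM in KYSE150 controls and 5.03, 6.24 and 6.51 in silenced cells, which overlapped. In KYSE510 it was at 9.90, 10.4 and 11.3 RPKM in controls and 8.89, 8.59 and 9.20 in silenced cells, so that every silenced library was below every control. Such a separation downwards held for 6.87% of genes tested in KYSE510. The KYSE510 silenced mean was 84.4% of control and the log2 difference was -0.23 (95% interval -0.59 to 0.13, limma adjusted p = 0.925). An exact two-sided permutation test gave p = 0.1, the smallest that 3 libraries against 3 allow. In KYSE150 the log2 difference was 0.06 (limma adjusted p = 0.888), and -0.07 after centring the libraries.

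BBC3 (PUMA) and PMAIP1 (NOXA) are both induced by DNA damage and other stress; PUMA binds all anti-apoptotic family members, whereas NOXA acts mainly on MCL1 and BCL2A1. BBC3 lies at chr19:47220822-47232766 on the minus strand. It was at 0.816, 0.812 and 0.859 RPKM in KYSE150 controls and 0.969, 1.39 and 0.711 in silenced cells. KYSE510 controls and silenced cells held it at 0.366, 0.697 and 0.960 RPKM and at 0.564, 0.596 and 0.670 RPKM. In KYSE150 the silenced libraries scattered around the controls, and in KYSE510 they lay within the control range, with log2 differences of 0.17 (limma adjusted p = 0.655) and -0.05 (adjusted p = 0.995).

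PMAIP1 lies at chr18:59899948-59904306 on the plus strand. It was at 3.84, 3.68 and 4.12 RPKM in KYSE150 controls and 5.77, 4.90 and 5.24 in silenced cells. Every silenced KYSE150 library was above every control, as was the case upwards for 13.7% of genes tested. The mean was 3.88 ± 0.221 RPKM in controls and 5.31 ± 0.438 in silenced cells (SD, n = 3), 137% of control, with an exact two-sided permutation p = 0.1, the smallest possible. The log2 difference of 0.40 had an SE of 0.15 in the 4-group fit (limma adjusted p = 0.219) and an SE of 0.07 once replicates were blocked (adjusted p = 0.0287). Without the RPKM minimum, the blocked adjusted p was 0.0649. After centring the libraries, the unadjusted limma p without the block was no longer under 0.05, and the block was not combined with centring. With the block, 7 of 11 squamous markers were also called higher in KYSE150, beside 5.04% of all genes tested. Their summed level there was 1115 to 1786 RPKM in controls and 1385 to 2987 in silenced cells. Their part and that of depth in the value of PMAIP1 were not tested.

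In KYSE510, PMAIP1 was at 5.62, 6.59 and 7.98 RPKM in controls and 6.14, 7.63 and 9.73 in silenced cells. The groups overlapped, but each silenced library was above its same-numbered control. The log2 difference was 0.19 (SE 0.15, limma adjusted p = 0.942; with the block 0.287). It was 0.04 without silenced replicate 3. Averaged over both lines the difference was 0.30, higher in 6 of 6 pairs, with an SE of 0.11 (limma adjusted p = 0.317), or of 0.05 in the blocked fit (adjusted p = 0.0295). Exact permutation of treatments within lines (400 arrangements, two-sided) gave p = 0.04 for that mean and p = 0.025 for the mean of BAD. For the other members the same permutation test gave p = 0.085 (BMF) to 0.92 (BCL2L11). These are not adjusted over genes.

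BAD sensitises cells by occupying BCL2, BCL2L1 and BCL2L2. The gene lies at chr11:64269830-64284704 on the minus strand. It was at 12.7, 10.5 and 17.8 RPKM in KYSE150 controls and 16.4, 21.0 and 20.9 in silenced cells. The values in KYSE510 were 9.08, 11.0 and 10.3 RPKM in controls and 10.6, 12.4 and 13.0 in silenced cells. The groups overlapped in both lines, in KYSE150 through control replicate 3 alone. Silenced means were 142% and 119% of control. The log2 difference in KYSE150 was 0.52 (SE 0.17, limma adjusted p = 0.175; with the block 0.0643), and 0.72 (adjusted p = 0.0284) without control replicate 3. It was 0.23 (SE 0.17, adjusted p = 0.925) in KYSE510.

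BAD shares 404 exon bases, 23.7% of its exon length, with GPR137 on the opposite strand. Whether counting used strand is not given in the sources used here, and without strand the reads of both genes cannot be told apart. GPR137 was at 5.01, 4.68 and 7.61 RPKM in KYSE150 controls and 6.29, 8.78 and 9.08 in silenced cells. Its log2 difference was 0.46 (limma adjusted p = 0.222) in KYSE150 and 0.11 in KYSE510, and its part in the values of BAD was not tested.

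**Figure D3:**
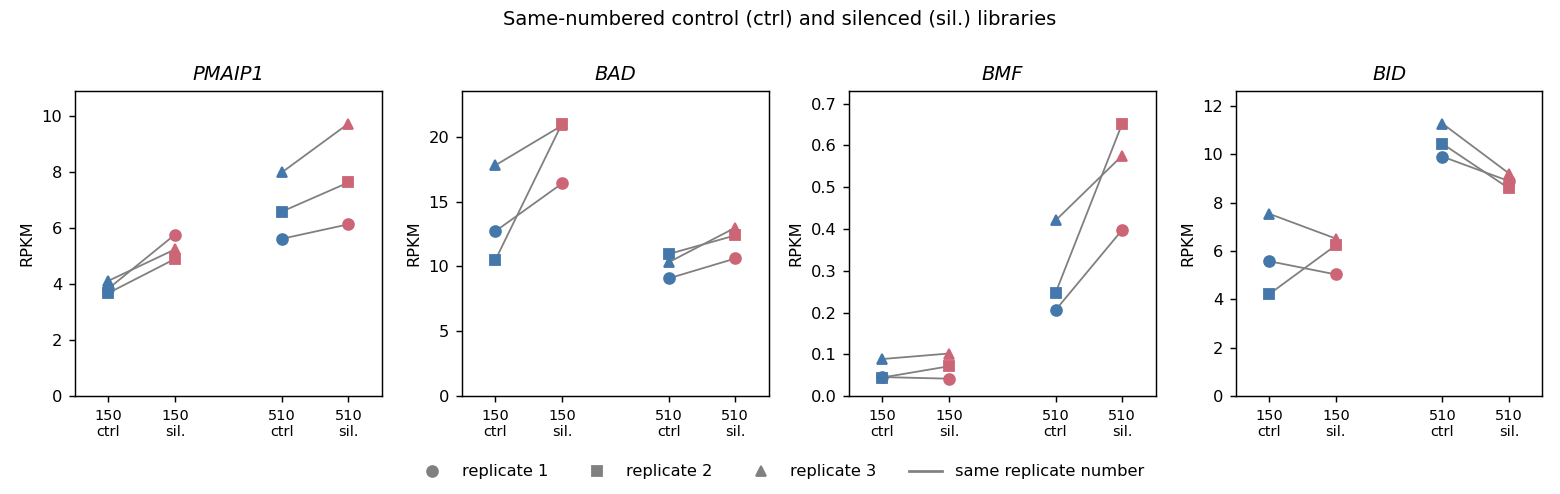
RPKM (vertical axis, linear) of PMAIP1, BAD, BMF and BID, with lines joining control and silenced libraries of the same replicate number in each cell line. All 6 lines slope upward for PMAIP1 and for BAD, 5 of 6 do so for BMF, and all 3 KYSE510 lines slope downward for BID.

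BIK, a member that sits at the endoplasmic reticulum, and HRK (harakiri), known mainly from neurons, showed no shift on silencing beyond their spread. BIK lies at chr22:43110748-43129712 on the plus strand. It was at 0.786, 0.409 and 1.34 RPKM in KYSE150 controls and 0.838, 1.34 and 0.662 in silenced cells. KYSE510 had 4.75, 5.19 and 7.51 RPKM in controls and 5.64, 5.37 and 6.16 in silenced cells. Silenced and control libraries of BIK overlapped in both lines. The log2 difference was 0.14 (95% interval -0.42 to 0.69, limma adjusted p = 0.816) in KYSE150 and 0.00 (-0.55 to 0.55) in KYSE510.

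HRK lies at chr12:116856144-116881441 on the minus strand. It was at 0.692, 0.896 and 0.681 RPKM in KYSE150 controls and 0.494, 0.864 and 0.660 in silenced cells. For KYSE510 the values were 0.601, 0.849 and 0.764 RPKM in controls and 0.645, 0.774 and 0.669 in silenced cells. HRK was lower in the silenced library in 5 of 6 pairs, but the groups overlapped. The log2 difference was -0.11 (SE 0.14, limma adjusted p = 0.709) in KYSE150 and -0.05 (SE 0.14, adjusted p = 0.990) in KYSE510.

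BMF, which is held at the cytoskeleton through a dynein light chain, lies at chr15:40087890-40108892 on the minus strand. It was at 0.0458, 0.0447 and 0.0890 RPKM in KYSE150 controls and 0.0419, 0.0716 and 0.102 in silenced cells. In KYSE510 it was at 0.206, 0.247 and 0.420 RPKM in controls and 0.398, 0.652 and 0.576 in silenced cells. The KYSE510 groups overlapped only between the lowest silenced and the highest control library. All 3 pairs were higher in silenced cells, as for 16.0% of genes tested, a set that leaves out BMF. The silenced KYSE510 mean, 0.542 ± 0.130 RPKM (SD, n = 3), was 186% of the control mean of 0.291 ± 0.114. In limma without the RPKM minimum the log2 difference was 0.40 (SE 0.12, adjusted p = 0.511; with the block 0.266), and with voom on reads 0.90 (adjusted p = 0.546). The difference between the lines was 0.37 lower in KYSE150 (adjusted p = 0.586). BMF shares 461 exon bases (8.46%) with RP11-521C20.3 on the opposite strand, which had only 0 to 5 reads per library.

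More genes differed between the control cells of the lines than between silenced and control cells. In limma, 4 of 7 members were higher in KYSE510 than in KYSE150 controls and 0 were lower, beside 28.3% and 33.7% of all genes tested, so that 62.0% of all genes were called. BIK was 6.89-fold higher in KYSE510 controls (5.82 ± 1.48 against 0.845 ± 0.469 RPKM, SD, n = 3). Its log2 difference was 2.27 (SE 0.25, adjusted p = 1.22e-05). BID was 1.82-fold higher (log2 difference 0.85, SE 0.16, limma adjusted p = 0.00081), PMAIP1 1.73-fold (0.71, SE 0.15, adjusted p = 0.00191) and BCL2L11 1.62-fold (0.54, SE 0.13, adjusted p = 0.00389).

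BMF was 4.87-fold higher in KYSE510 controls in RPKM. Without the minimum its log2 difference was 0.49 (SE 0.12, limma adjusted p = 0.00763), beside 34.3% of the 36815 genes of that fit called. In these 5 genes every KYSE510 control was above every KYSE150 control, as for 28.5% of genes tested, a set that leaves out BMF. BAD leaned the other way, 1.35-fold higher in KYSE150 (log2 difference -0.39, limma adjusted p = 0.0675). It passed after centring the libraries (adjusted p = 0.0260) and without KYSE150 control replicate 2 (-0.55, adjusted p = 0.0126). BBC3 at -0.21 (limma adjusted p = 0.361) and HRK at -0.02 (adjusted p = 0.898, and 0.01 after centring) did not pass. Only 1 line stands on each side, so these are differences between KYSE150 and KYSE510 and not between kinds of tumour.

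**Figure D4:**
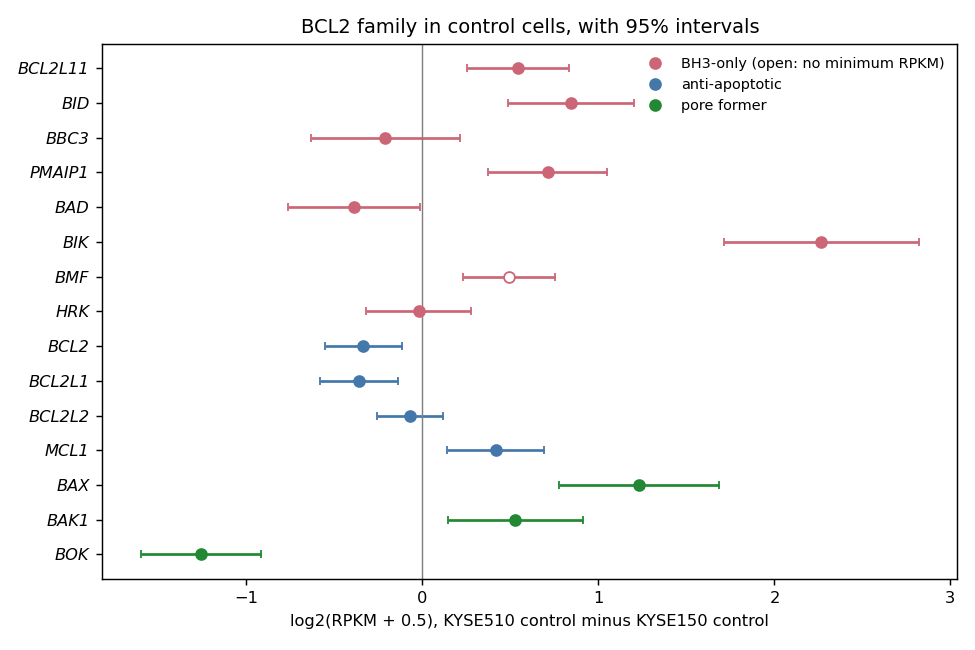
KYSE510 control minus KYSE150 control on log2(RPKM + 0.5) with 95% intervals (horizontal axis) for BH3-only genes (red), anti-apoptotic genes (blue) and pore formers (green). BIK is farthest to the right at 2.27, BAX is at 1.23 and BOK at -1.26.

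The proteins that BH3-only members act on were measured in the same libraries. Of 6 anti-apoptotic genes, 4 were tested, and 0 passed on silencing in either line in limma without the block. With the block, MCL1, the main partner of NOXA, rose by 0.50 on the log2 scale in KYSE150 (adjusted p = 0.0126; without the block 0.101), and BCL2L1 (BCL-xL) rose by 0.35 (adjusted p = 0.0437; without the block 0.136). After centring the libraries, without the block, MCL1 was at 0.37 in KYSE150 (limma adjusted p = 0.140). In KYSE510 MCL1 and BCL2L1 were at 0.08 and -0.15 (limma adjusted p with the block 0.532 and 0.422). The difference between lines had adjusted p of 0.109 for MCL1 and 0.117 for BCL2L1 with the block. The 3 pore formers BAX, BAK1 and BOK had 0 calls in either line, and their median was 0.43 in KYSE150 and -0.10 in KYSE510. After centring the libraries that median was 0.30 and -0.08. Between the control lines, MCL1 (0.42), BAX (1.23) and BAK1 (0.53) were higher in KYSE510, and BCL2 (-0.34), BCL2L1 (-0.36) and BOK (-1.26) were lower.

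Regulators and proteins that bind or process BH3-only members gave similar counts. Of 10 tested partners, which include the 14-3-3 genes for BAD, the dynein light chains for BCL2L11 and BMF, and CASP8 for BID, 0 passed in either line without the block, and DYNLL2 rose in KYSE150 with it (0.31, adjusted p = 0.0406). Between control lines 4 were higher in KYSE510 (3 after centring the libraries), among them CASP8 (1.50) and DYNLL1 (0.58), and 2 lower, YWHAE (-0.47) and YWHAG (-0.41). In that contrast 28.3% of all genes tested were called higher and 33.7% lower. After centring, 5449 and 5847 of the 17823 genes were. Of 10 transcriptional regulators, 0 passed in either line in limma without the block. With it, TP73 (0.59), TP63 (0.37) and MYC (0.27, limma adjusted p = 0.0439, or 0.620 without the block) rose in KYSE150. In KYSE510 MYC was at -0.14 (limma adjusted p with the block 0.355). Centring the libraries, without the block, lowered the KYSE150 median of the regulators from 0.25 to 0.12 and that of the partners from 0.14 to 0.01. TP63, a transcription factor of squamous epithelium, rose by 0.32 averaged over both lines (adjusted p = 0.0483; with the block 0.0161), but did not pass after centring the libraries (0.27, adjusted p = 0.0860). Between control lines MYC (3.14), TP73 (1.42) and TP63 (0.30) were higher in KYSE510.

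Among 9 apoptosome and executioner genes, 0 passed on silencing without the block. With it, HTRA2, a mitochondrial protease, rose in KYSE150 (0.38, limma adjusted p = 0.0426). The KYSE150 median of these genes without the block was 0.18, and 0.05 after centring the libraries. Between the controls, CASP9 (0.43), the caspase of the apoptosome, was higher and DIABLO (-0.25), an antagonist of caspase inhibitors, lower in KYSE510, the latter not after centring the libraries (-0.22, adjusted p = 0.107).

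The E-box CACGTG is a binding sequence of MYC and other basic helix-loop-helix factors, and MYC differed most among the regulators between the lines, so it was searched in RefSeq promoter windows (GRCh38.p14, 250 bases before to 50 after a start site). The motif is its own reverse complement, so a search of either strand finds the same sites. It was found in windows of 2 of the 7 members with a window, BBC3 and BID, beside 8.77% of all 27305 genes with a window. By windows it was in 3 of 13 of the members, 2 of them of BID and overlapping, beside 7.26% of all 35116. The stretch of BBC3 lies at chr19:47232882-47232911, with the motif 232 bases before the start site, and that of BID at chr22:17774072-17774101, 106 and 47 bases before start sites of its windows. Both are on the minus strand, with the motif in capitals.
BBC3 promoter: atggggagatttCACGTGagatatagatta
BID promoter: ttgtgtcctctcCACGTGgcctggggattc

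Between the control lines, BID was higher in KYSE510 and BBC3 was not. Of the members whose windows hold no E-box, PMAIP1, BCL2L11 and BMF were higher there, and BAD and HRK were not. A part of MYC in these levels was not tested, and a match is a description of letters and not of binding.

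The tested members did not all vary together across libraries. Pearson's r between members was taken over the 12 libraries, which share depth and treatment, after the mean of each line was subtracted. It ran from -0.24 for PMAIP1 with HRK to 0.69 for BID with BIK, and was 0.68 for PMAIP1 with BAD. Every negative r was with HRK, and the lowest r among the other members was 0.09, for BID with PMAIP1. Among 14028 genes with a mean of at least 1 RPKM, the gene most alike was TPP1 for BCL2L11 (r = 0.98), ELP5 for BID (0.96), HIVEP2 for PMAIP1 (0.95), WDR5B for HRK (0.94) and AC004510.3 for BBC3 (0.94). It was RP3-402G11.28 for BAD (0.97) and RP4-583P15.15 for BIK (0.89). These values are the highest of many and describe these 12 libraries.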

How the data were processed

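RNA of 12 libraries was analysed from a table of 38516 genes that the authors deposited as RPKM. Per the submitters' processing notes, HISAT2 and DESeq were used with GRCh38, and its position columns have the layout of featureCounts output, per the file headers. Versions, the annotation release, strand use and filters are not given in the sources used here. RPKM times exon length gave whole reads (within 0.01) for 100% of values. An RPKM of 0.106 to 0.150 corresponds to 3 reads in a gene of 1 kb, so low genes are imprecise. Intervals cover the spread between libraries; nothing says the replicates were separate cultures, so p-values measure only the spread between these libraries. Within each group no library was a copy of another: between replicates the mean chi-square of a gene was 10.3 to 36.6, above sampling noise.

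Values were taken as log2(RPKM + 0.5). The 17823 genes that reached 0.5 RPKM in 3 or more libraries were fitted with limma 3.58.1 in R 4.3.3, with 4 group means over all 12 libraries, a trended prior and 8 residual degrees of freedom (4 with the block), and p-values were adjusted over all genes tested. The test script was checked on simulated data. Replicate numbers come from the titles. Deviations of same-numbered control and silenced libraries correlated at 0.147 to 0.415 in 6 of 6 pairs. Those of other numbers were at -0.385 to 0.184, an overlapping range. Deviations from a group mean sum to 0, so these ranges are not independent of each other. No label states a pairing, so the replicate block rests on these correlations alone. Alternatives were other pseudocounts and minimums, centring, quantile normalization, a replicate block, limma without the trend, voom on recovered reads and leaving out each library. Fits without a minimum combined with voom or the block were added after seeing the data.

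The members and the other gene lists were chosen with earlier results of these data known. All 8 members were named. From other lists, up to 4 genes per list past an adjusted p of 0.05 in a silencing contrast, blocked or not, and up to 4 with the largest differences between control lines were named. GPR137 and RP11-521C20.3 were named for their overlap with members. The BH3 pattern was leucine, any 3 residues, then glycine, alanine or serine, then aspartate. The further requirement of alanine or glycine 3 residues before the leucine was added after the plainer pattern matched other stretches. Some genes of these lists are not reported here.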

Additional observations from a re-analysis of the deposited data

How the results depend on the processing

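The 35 values reported were recomputed under other processing, giving 349 values, and 31 of them with each of the 12 libraries left out, giving 372; 335 and 356 kept direction and side of the threshold. With the replicate block, 1 member, PMAIP1, was called in KYSE150 and 1, PMAIP1 again, in the mean over both lines, against 0 without it; the block changed no other call of a member, and HCP5 averaged over both lines passed with it (adjusted p = 0.0295 against 0.185). Leaving out a library gave 0 to 1 calls in KYSE150 (BAD, without control replicate 3) and 4 to 5 between control lines. Direction changed in KYSE150 for BCL2L11 (-0.044 centred, -0.024 quantile) and BID (-0.069 centred, -0.055 quantile). In KYSE510 BIK was at -0.00096 with pseudocount 1, -0.0031 with voom and -0.0029 with voom without the minimum. HRK between lines was 0.0072 centred. Leaving out a library gave log2 ranges across 0 in KYSE150 for BID (-0.13 to 0.26), BIK (-0.12 to 0.39) and HRK (-0.22 to 0.0063). In KYSE510 it did so for BCL2L11 (-0.18 to 0.018), BBC3 (-0.25 to 0.12), BIK (-0.12 to 0.18) and HRK (-0.13 to 0.018), and between lines for HRK (-0.087 to 0.060). With a library left out and no centring, PMAIP1 stayed at 0.35 to 0.46 and BAD at 0.35 to 0.72 in KYSE150. After centring, the largest member difference in KYSE150 was 0.39, and PMAIP1 no longer had an unadjusted limma p under 0.05. The block was not combined with centring. The cause of these shifts was not tested. BMF was below the minimum and entered only fits without it. Few reads limit BMF in both lines and BIK in KYSE150.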
